A study of Mus musculus with 61 samples.

Results

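The hypothalamus of A/J, C57BL/6J, FVB/NJ, 129S6/SvEvTac, DBA/2J and C3H/HeJ mice, 6 inbred strains, was compared on 12 arrays, 2 for each strain, chosen from the 61 arrays of the study because their titles name the hypothalamus. The other 49 arrays hold the hippocampus, the pituitary gland, the periaqueductal gray (pag) and the bed nucleus of the stria terminalis (bnst) of the same strains. All mice were wild type males of 8 weeks, with no treatment and no engineered allele in any group, housed singly for the week before dissection. Each array measured a pool of RNA from 2 mice, except the second FVB/NJ array, which measured 1 mouse, and the methods state that replicate pools came from independent animals. The 129S6/SvEvTac mice came from Taconic and the other 5 strains from the Jackson Laboratory, so supplier and strain cannot be told apart for 129S6/SvEvTac. Dissections ran from late morning to late afternoon, and the hour of each pool is not given in the sources used here.

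The hypothalamus lies at the base of the forebrain, above the pituitary gland, and its neurons make the peptides that control feeding, water balance, body temperature, sleep, reproduction and stress. Some of its neurons send vasopressin and oxytocin to the posterior pituitary, and others release hormones into the portal blood that govern the anterior pituitary. Tanycytes line the third ventricle on its floor, next to the pars tuberalis, a thin sheet of pituitary cells that a dissection can carry along. Inbred strains carry many fixed DNA differences, and strains such as C57BL/6J, DBA/2J and A/J are known to differ in food intake, anxiety and endocrine traits.

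The tissue carried the markers its label asks for. Avp, which encodes vasopressin, had a mean array signal of 5436 ± 712 (SD, n = 12 arrays) in the hypothalamus, against means of 27.1 to 1642 in the other 4 regions. Pmch, the melanin-concentrating hormone gene of the lateral hypothalamus, had 4356 ± 498 there, against 51.9 to 2562 elsewhere. Trh, the thyrotropin-releasing hormone gene, had 418 ± 42.2, against 16.1 to 172, and the transcription factor Otp had 829 ± 90.4, against 30.8 to 351. In each case the highest of the other regional means was that of the bnst, which lies next to the hypothalamus. None of the 10 measured markers of hypothalamic neurons passed the strain test described below.

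Array signals were linear, background-corrected intensities that the authors had scaled, with means of 188 to 199.6 per array. The second 129S6/SvEvTac array stood apart from the rest. Its log2 signals correlated with its replicate at r = 0.937, against 0.975 to 0.984 for the replicates of the other strains, and 14.8% of its probe sets lay at or below the floor used here, against 18.99% to 22.5% on the other 11 arrays. The pair of FVB/NJ arrays, 1 of them from a single mouse, also differed more than most. The SD of the log2 difference between replicates was 0.33 in 129S6/SvEvTac and 0.30 in FVB/NJ, against 0.20 to 0.22 in the other 4 strains. Results are therefore given with and without the second 129S6/SvEvTac array.

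To ask which genes differed between strains, each of 42284 probe sets was tested on the log2 scale with limma's moderated F test over the 6 strain means, after signals under a floor of 12.8 were raised to it. A probe set is a group of short probes for 1 transcript, and a gene may have several. At a Benjamini-Hochberg adjusted p under 0.05, 1381 probe sets were called, which is 3.27% of those tested, and 6183 had an unadjusted p under 0.05. They named 892 genes. The highest and lowest strain means lay a median of 1.53 log2 units apart in the called probe sets, against 0.56 over all probe sets tested. Of the 1381, 1050 (76.0%) had strains over 2-fold apart, 445 (32.2%) over 4-fold and 143 over 8-fold. In 206 of them (14.9%) at least 1 strain lay at the floor on both arrays, so the fold is a lower bound. The 2 values of such a strain become equal and add no spread to the test, which makes its SE and p smaller. Without the second 129S6/SvEvTac array 1315 probe sets were called, and 5356 without the first, when the second stood for its strain alone. The count fell by over 1.5 times without an array of A/J (793 and 792), C57BL/6J (719 and 744) or DBA/2J (761 and 781), or without the second C3H/HeJ array (865).

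Most called genes were called by 1 probe set among several. Of the 892 genes, 686 had more than 1 probe set tested. In 566 of these 1 probe set was called, in 81 more than 1 but not all were called, and in 39 all were called. A strain difference is therefore that of 1 probe set. For many genes the parentheses give how many of all probe sets naming the gene were called by the F test. Such a call can be for any strain and direction, so the number does not tell whether the probe sets agree. The genes named for single strains were taken from separated probe sets in which the strain's arrays did not overlap the other 10, so the lack of overlap is how they were chosen and not a result. Whether a strain's DNA sequence under the probes moved a signal was not tested.

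Each strain was then set against the mean of the other 5. C57BL/6J was the strain in which higher calls prevailed: 342 probe sets were higher (0.809% of those tested) and 148 lower (0.35%), 1.16% in all. For 129S6/SvEvTac the counts were 319 higher (0.754%) and 353 lower (0.835%), 1.59% in all. A/J had 137 higher (0.324%) and 248 lower (0.587%), 0.911% in all. C3H/HeJ had 107 higher (0.253%) and 225 lower (0.532%), 0.785% in all, the fewest of the 6. DBA/2J had 178 higher (0.421%) and 231 lower (0.546%), 0.967% in all, and FVB/NJ had 165 higher (0.39%) and 236 lower (0.558%), 0.948% in all. Without the second 129S6/SvEvTac array the totals were 293 for 129S6/SvEvTac, 533 for A/J, 379 for C3H/HeJ, 575 for C57BL/6J, 449 for DBA/2J and 453 for FVB/NJ. When arrays were scaled to 1 median, 177 probe sets were higher and 345 lower in 129S6/SvEvTac, a scaling that shifts all its differences by -0.14 log2 units, and the split moved by under 10 percentage points in the other strains. A strain was called separated where it differed from each of the other 5 strains in the same direction, which held for 87 probe sets in C57BL/6J (0.206% of those tested), 74 each in 129S6/SvEvTac and DBA/2J (0.175%), 64 in FVB/NJ (0.151%), 38 in A/J (0.0899%) and 31 in C3H/HeJ (0.0733%).

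**Figure D1:**
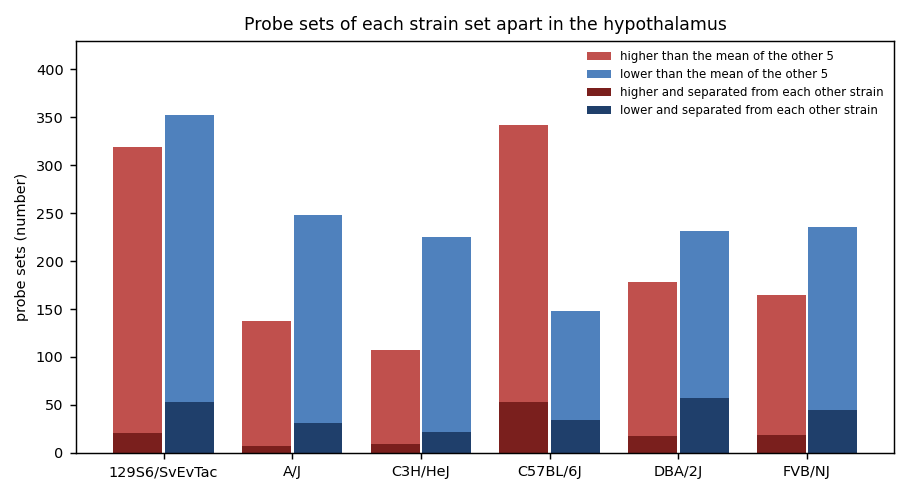
Number of probe sets (y axis) called higher (red) or lower (blue) in each strain (x axis) than the mean of the other 5, with the part separated from each of the other 5 strains in dark shade. C57BL/6J had more higher than lower calls (342 against 148) and the other 5 strains had more lower ones.

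In 129S6/SvEvTac 53 of the 74 separated probe sets were low. Dzip1, a zinc finger protein needed to build the primary cilium, read 5.95 and -0.33 on the 129S6/SvEvTac arrays, against 197 to 328 on the other 10 (log2 difference -4.43 ± 0.14, SE, limma adjusted p = 1.8e-06; 1 of 5 probe sets called). Both values lie under the floor, so the difference is a lower bound of its size. Tial1, an RNA-binding protein of stress granules, read 7.05 and -23.2 in 129S6/SvEvTac, against 185 to 309.8 elsewhere (1 of 5). Lztfl1, a partner of the ciliary trafficking complex BBSome, read 17.5 and 18.2, against 113 to 179 (1 of 5). Signals below 0 come from background subtraction and mean no measurable signal. Minar2 stayed well above background in every strain and read 290.4 and 212 in 129S6/SvEvTac, against 1158 to 1586 (-2.52 ± 0.12 log2 units; 1 of 3). Ppcdc, an enzyme of coenzyme A synthesis, read 2.19 and 15.6, against 150.3 to 188 (1 of 3). Among separated genes picked after their values were seen, Sdc4, a heparan sulfate proteoglycan of the cell surface, was higher in 129S6/SvEvTac, with 587 and 579.7, against 123 to 231 (1.71 ± 0.14; 1 of 2). Cd59a, which shields cells from complement, was lower, at 98.6 and 114, against 184 to 441 (-1.45 ± 0.10; 2 of 2). The small heat shock protein gene Cryab read 182 and 168, against 293 to 483 (-1.05 ± 0.11; 2 of 3), and its F test gave an adjusted p of 0.0056 with all arrays and 0.054 without the second 129S6/SvEvTac array.

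In A/J 31 of 38 separated probe sets were low. Ywhaq, which encodes the 14-3-3 protein theta, read 197 and 218 in A/J, against 852 to 1167 on the other 10 arrays (-2.16 ± 0.08, adjusted p = 4.2e-06; 2 of 8 probe sets called). Rgs5, a regulator of G protein signalling known from pericytes, read 74.8 and 77.3, against 242 to 349 (-2.01 ± 0.11; 2 of 4). Mtm1, the phosphoinositide phosphatase myotubularin, went the other way, with 761 and 851 in A/J, against 121 to 313 (1.94 ± 0.11; 2 of 3). Tra2a, a splicing regulator, read 54.8 and 49.5, against 87.2 to 339.9 (2 of 6). Gfap, the intermediate filament of astrocytes, was low in A/J by 1 of its probe sets, at 8.36 and 15.3, against 67.4 to 354 (-3.44 ± 0.18). Its brightest probe set read 701 and 787 in A/J, against 772 to 1956, and by that probe set Gfap was higher in FVB/NJ, with 1956 and 1549, against 701 to 1272 in the other strains (0.97 ± 0.13, adjusted p = 0.009; its F test passed in 5 of 12 fits that each left out 1 array, and not without the second 129S6/SvEvTac array).

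C3H/HeJ had the fewest separated probe sets, 22 of 31 of them low. Lin7c, a scaffold of synapses and epithelial junctions, read 19.2 and 24.6 in C3H/HeJ, against 456 to 642 elsewhere (-4.63 ± 0.12, adjusted p = 5.5e-07; 2 of 4 probe sets called). Nme7, a nucleoside diphosphate kinase of the centrosome, was higher, with 829 and 743, against 149 to 212 (2.19 ± 0.12; 1 of 2). Zfp939, a zinc finger gene, read 42.2 and 31.4, against 112 to 213 (-2.06 ± 0.20; 1 of 1), a call lost without the second C3H/HeJ array. Hbegf, a growth factor of the epidermal growth factor family that was picked after its values were seen, was higher, at 459 and 401, against 77.9 to 127 (1.98 ± 0.16; 2 of 2). Plcxd2, 1 of the 10 genes with the smallest F p, read 188 and 172 in C3H/HeJ and 299.7 and 294 in 129S6/SvEvTac, against 708 to 960.2 in the other 4 strains (2 of 2 called). The imprinted noncoding RNA Meg3, also picked afterwards, read 773 and 881 in C3H/HeJ and 878 and 1126 in DBA/2J, against 2108 to 3330.0 in the other 4 (2 of 11 called).

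C57BL/6J held the largest difference among the genes named by rule, and 53 of its 87 separated probe sets were high. Prune2 read 1085 and 1238 in C57BL/6J, against 11.4 to 58.9 in the other strains (5.42 ± 0.48, adjusted p = 0.00054; 2 of 4 probe sets called). Rmst, a noncoding RNA of neural progenitors, read 299.9 and 396, against 6.89 to 72.0, and Arhgap26 read 143 and 229.8, against -3.18 to 17.2 (1 of 2 and 1 of 4). Cd99l2, an adhesion protein, read 175 and 164, against -0.46 to 20.6 (2 of 4). The call of Rmst against the other 5 was lost when either C57BL/6J array was left out. Tmem87a, a membrane protein of the Golgi with 1 probe set, was at background in C57BL/6J, with 5.78 and -6.48, against 306 to 379.6 elsewhere (-4.65 ± 0.09, adjusted p = 3.9e-08). These 2 values lie under the floor, so the size of the difference is a lower bound and C57BL/6J adds no spread to its SE. Cap1, which turns over actin filaments, read 65.7 and 60.1, against 432 to 556 (-3.01 ± 0.09; 2 of 2). Picked after their values were seen, the antioxidant enzyme gene Prdx2 read 697 and 718 in C57BL/6J, against 44.0 to 100.05 (1 of 2), and Pttg1, which encodes securin, read 1327 and 1564, against 82.1 to 176 (2 of 3). Gnb1, the beta 1 subunit of heterotrimeric G proteins, was lower in C57BL/6J, at 305 and 330.2, against 923 to 1461 (-1.82 ± 0.08; 3 of 3).

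DBA/2J was low in 57 of its 74 separated probe sets. Snhg14, the long transcript that carries small nucleolar RNAs of the Prader-Willi and Angelman region, read 45.1 and 58.0 in DBA/2J, against 510.4 to 958 (-3.83 ± 0.17, adjusted p = 1.1e-05; 1 of 3 probe sets called). Sbsn, a secreted protein of skin, read 6.71 and 9.07, against 70.3 to 241 (2 of 3), and 1500004A13Rik 4.39 and 7.53, against 94.8 to 159 (2 of 3). Eef1akmt1, a lysine methyltransferase of elongation factor 1, read 9.25 and 15.4, against 95.2 to 136 (2 of 4). Stab2, a scavenger receptor for hyaluronan, was high in DBA/2J, with 305 and 304, against 18.2 to 58.4 (3.44 ± 0.37), and lost its call against the other 5 without either DBA/2J array. Picked after their values were seen, Neat1, the RNA that builds nuclear paraspeckles, read 51.6 and 77.3, against 203 to 528 (-2.55 ± 0.21; 1 of 2), and Fto, an RNA demethylase gene tied to body weight, read 88.3 and 74.1, against 172 to 340.4 (-1.61 ± 0.18; 1 of 2). The adjusted p of Fto was 0.015 to 0.17 over the 12 fits that each left out 1 array, above 0.05 without any array of C57BL/6J or DBA/2J. Myo5a encodes the motor protein myosin Va, in which DBA/2J carries the dilute coat colour mutation, and read 770.5 and 883, against 1133 to 1359 (-0.60 ± 0.07; 1 of 3), with its F test kept in 7 of 12 such fits.

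In FVB/NJ 45 of 64 separated probe sets were low. Creg2, a secreted glycoprotein of brain with 1 probe set, was higher, with 438 and 421 in FVB/NJ, against 4.36 to 71.5 (3.65 ± 0.44, adjusted p = 0.0039), and lost that call without either FVB/NJ array. Psmc3ip, a partner in meiotic recombination, was higher, at 203 and 187, against 19.2 to 40.9 (2.69 ± 0.21; 2 of 2). The low genes included Arhgap21, with 67.5 and 99.8 in FVB/NJ, against 588 to 770.0 (-3.09 ± 0.15; 1 of 2). Acad9, a mitochondrial acyl-CoA dehydrogenase needed for complex I assembly, read 41.5 and 17.5, against 121 to 218 (1 of 3). Picked after their values were seen, Ndufv1, a subunit of complex I, read 301 and 291, against 799 to 946 (-1.56 ± 0.07; 2 of 3). Fgf1, a growth factor of neurons, read 150.2 and 129.6, against 534 to 807 (-2.23 ± 0.08; 2 of 3), and Capzb, which caps actin filaments, 358 and 247, against 1340.3 to 1751 (3 of 4). Hspa1b, an inducible heat shock protein, was higher in FVB/NJ, at 229 and 215, against 38.5 to 92.1 (1.77 ± 0.18; 3 of 3), with an adjusted F p of 0.051 without the first FVB/NJ array.

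**Figure D2:**
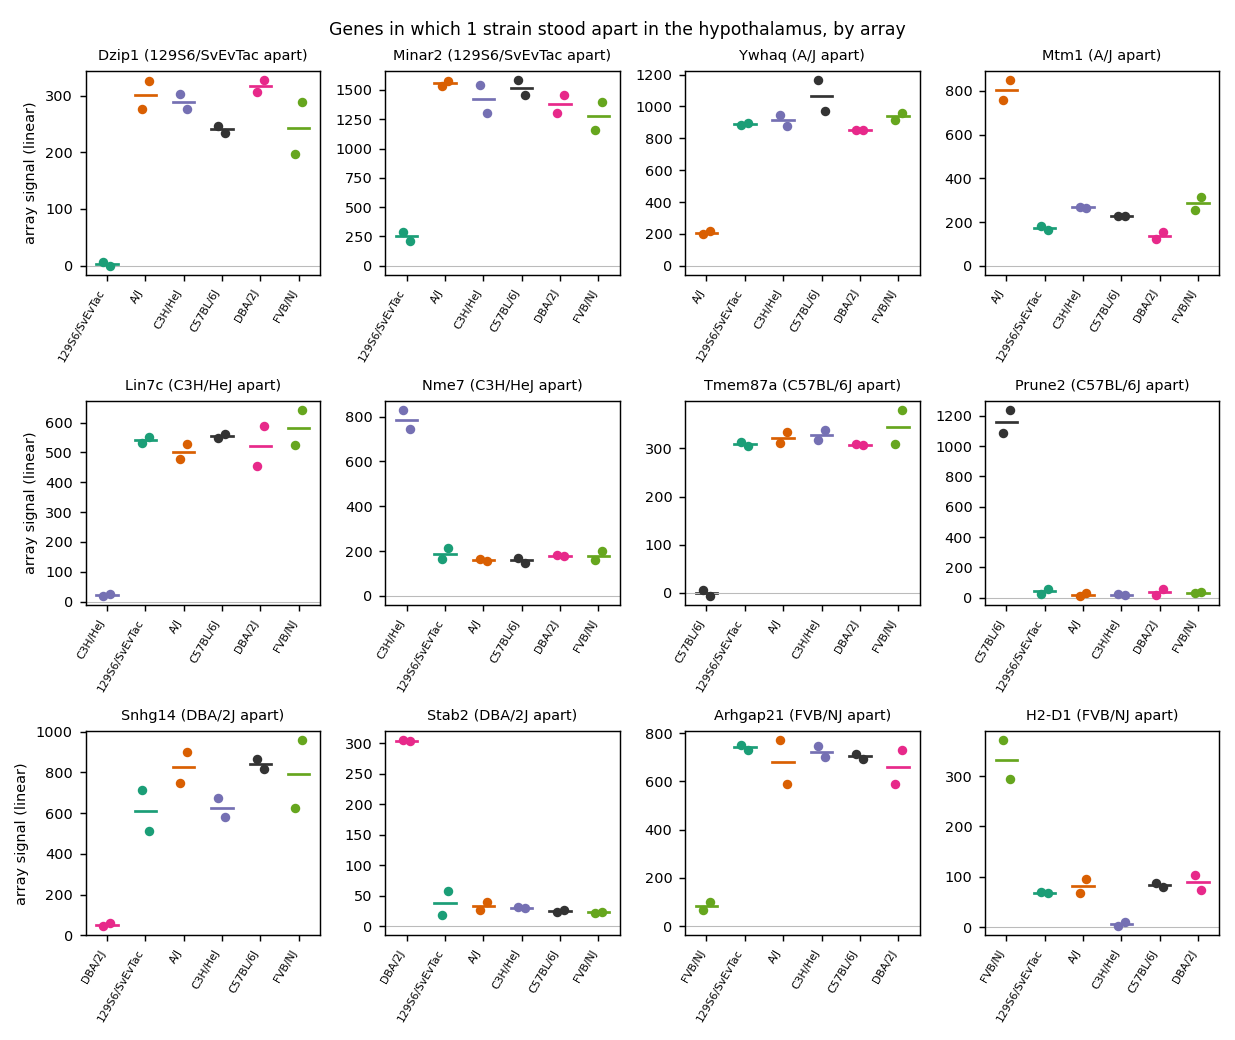
Array signal (y axis, linear) of 12 genes in each strain (x axis), with the strain that stood apart placed at the left of its panel; points are arrays and bars are means of 2 arrays. The genes were chosen as ones in which the leftmost strain does not overlap the others, and C3H/HeJ lies low in H2-D1, at 1.82 and 9.86.

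Other probe sets split the strains into groups. A split was counted where every strain of 1 side differed from every strain of the other in the same direction and no strains of a side differed, which held for 485 probe sets. Outside single strains, the most frequent were 129S6/SvEvTac with C57BL/6J higher (16 probe sets), A/J with C3H/HeJ lower (16), 129S6/SvEvTac with FVB/NJ lower (10) and C3H/HeJ with DBA/2J lower (10). Scn2b, the beta 2 subunit of neuronal sodium channels, read 56.4 and 80.2 in 129S6/SvEvTac and 44.5 and 54.4 in FVB/NJ, against 914 to 1375 in the other 4 strains (F test adjusted p = 9.1e-06; 2 of 3 probe sets called). Uqcr10, a subunit of mitochondrial complex III, read 2.74 and 16.8 in A/J and 9.15 and 5.10 in FVB/NJ, against 198 to 286 (9e-06; 1 of 3). Pdxdc1 read 43.3 and 36.9 in C3H/HeJ and 40.9 and 38.3 in DBA/2J, against 377 to 496 (6.3e-06; 3 of 4). In each of these genes the low pair of strains did not overlap the other 4. Gdpd3, a lipid phosphodiesterase, was above the floor in 2 strains, with 278 and 249.04 in 129S6/SvEvTac and 469 and 453 in FVB/NJ, against -2.74 to 13.2 (1.4e-05). Tnik, a kinase of postsynaptic Wnt signalling picked after its values were seen, read 14.6 and 19.3 in A/J and 21.6 and 17.1 in C3H/HeJ, against 158 to 389 (1.6e-05; 1 of 4). The pseudogene Pisd-ps3 had the smallest F p (6.9e-07) and 4 levels: 1111 and 1030.3 in 129S6/SvEvTac and 1061 and 1120.4 in DBA/2J, 367 and 367 in C57BL/6J, 138 and 162 in FVB/NJ, and 60.9 to 72.2 in A/J and C3H/HeJ (5 of 5 called). The probes may read a pseudogene together with its parent gene, so this level is uncertain for the single gene.

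Of the 15 pairs of strains, A/J and C3H/HeJ differed in the fewest probe sets, 216 (0.511% of those tested, 108 of them higher in A/J). A/J and FVB/NJ differed in 373, C3H/HeJ and FVB/NJ in 416 and C3H/HeJ and DBA/2J in 424. The most were 680, between 129S6/SvEvTac and A/J, and 639, between C3H/HeJ and C57BL/6J (177 of them higher in C3H/HeJ). All pair counts include the second 129S6/SvEvTac array, which stood apart from the rest. The order of the pairs without it is not given here.

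Of 13 tested genes in which inbred strains are known to carry DNA variants, 7 were called (beside 3.27% of all probe sets), with a median range of 1.17 log2 units; the list was drawn up with results of these data known and is a description. C57BL/6J was lower than the mean of the other 5 in 6 of them, beside 0.35% of all probe sets. It was higher in 1, H2-K1, beside 0.809%. Kcnj9, a G protein-gated potassium channel, read 110.2 and 129.7 in C57BL/6J, against 307 to 417 (-1.58 ± 0.10; 1 of 4 probe sets called), and Gabra2, the alpha 2 subunit of the GABA-A receptor, 159 and 167, against 262 to 429 (-1.15 ± 0.16; 3 of 5). Alad, an enzyme of haem synthesis, read 152 and 160.1, against 282 to 568, and Wdfy1, an endosomal adaptor, 203 and 199.6, against 422 to 597. C57BL/6J carries a known deletion in Nnt, the mitochondrial transhydrogenase, and read 206 and 194 there, against 336 to 497 (-1.02 ± 0.12). The F tests of Alad and Wdfy1 passed in all 12 fits that left out 1 array, that of Kcnj9 in 12 of 12, that of Nnt in 4 of 12 (adjusted p 0.00067 to 0.2) and that of Gabra2 in 4 of 12 (adjusted p 0.022 to 0.29). The calls of Nnt and Gabra2 both ended without any 1 of the arrays of A/J, C57BL/6J or C3H/HeJ, that of Nnt also without one of DBA/2J and that of Gabra2 without one of FVB/NJ. Glo1, a detoxifying enzyme whose copy number differs between strains, read 759 and 701 in FVB/NJ and 734 and 828 in C57BL/6J, against 1255 to 1846 in the other 4 (4 of 4 called), with the highest signals in A/J (1846 and 1751).

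The class I histocompatibility genes, which present peptides to T cells, also differed. Of 19 histocompatibility and interferon genes tested 4 were called, beside 3.27% of all probe sets. H2-D1 by its brightest probe set read 1408 and 1258 in FVB/NJ, 163 and 169.7 in C3H/HeJ and 412 to 611 in the other 4 strains (6 of 9 probe sets called). H2-K1 read 50.7 and 46.5 in C3H/HeJ and 60.7 and 98.3 in A/J, against 366 to 540.1 (3 of 4). By the probe sets that the rule named, H2-D1 read 371 and 294 in FVB/NJ and 1.82 and 9.86 in C3H/HeJ, against 66.9 to 104 in the other 4, and H2-K1 read 37.2 and 41.2 in C3H/HeJ, against 163 to 669 (-2.63 ± 0.13). Class I genes exist as near-identical copies that differ between strains, so a probe set may read more than 1 of them and these levels are uncertain for the single gene. B2m, the invariant light chain of class I molecules, read 982 and 1089 in C57BL/6J and 934 and 1067 in FVB/NJ, against 564 to 788 in the other 4 (F test adjusted p = 0.0073, and 0.051 without the second C57BL/6J array). H2-Q2 was highest in C57BL/6J, at 59.6 and 49.4, against 1.39 to 41.8 elsewhere.

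Of 13 feeding and energy peptides tested 1 was called, Pomc, and of 14 neuroendocrine and stress peptides 1 was called, Tac2, with median ranges of 0.57 log2 units in both lists, against 0.56 over all probe sets, of which 3.27% were called. Pomc, the precursor of the appetite-suppressing melanocortins and of adrenocorticotropin, read 1051 and 1080.0 in A/J, 867 and 851 in 129S6/SvEvTac, 726 and 384 in C57BL/6J, 562 and 482 in FVB/NJ, 337 and 314 in DBA/2J and 314 and 282 in C3H/HeJ. A/J was higher than the mean of the other 5 (1.18 ± 0.18, adjusted p = 0.018) and C3H/HeJ lower (-1.03 ± 0.18, 0.036), and both probe sets of Pomc were called. Both A/J arrays lay above all others, and the 4 arrays of C3H/HeJ and DBA/2J lay below all others. Pomc is also made in the pituitary gland, where its signal was 9367 ± 1463, and pituitary hormone signals differed between these arrays as given further on. The test of its strain differences against those of the other regions did not pass (adjusted p = 0.66). Its F test gave 0.0068, and 0.0007 to 0.057 when 1 array was left out, above 0.05 without the first A/J array. Tac2, which encodes neurokinin B of the arcuate neurons that pulse gonadotropin-releasing hormone, read 465 to 536 in A/J and C3H/HeJ, against 332 to 477 in the other 4 (F test adjusted p = 0.046), so the groups overlapped, and it passed in 2 of 12 fits that left out 1 array. Avp, Oxt, Pmch, Hcrt, Npy, Crh, Trh, Penk and Cartpt did not pass, with adjusted p of 0.077 (Cartpt) to 0.97 (Avp); the range between strain means was 0.19 log2 units for Avp and 1.42 for Hcrt.

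Of 10 granins and peptide processing genes 3 were called, Pam, Chga and Scg5, with a median range of 0.38 log2 units, beside 3.27% of all probe sets called and a median of 0.56. Pam, the enzyme that amidates many neuropeptides at their C-terminus, read 1499 and 1801 in 129S6/SvEvTac and 1649 and 1467 in DBA/2J, against 399 to 735 in the other 4 strains (F test adjusted p = 0.00018; 1 of 1 probe set). The 2 strains did not overlap the rest, and Pam was called in all 4 other regions. Chga, the secretory granule protein chromogranin A, read 1092 to 1252 in A/J and C3H/HeJ, 899 to 1049.8 in DBA/2J and FVB/NJ, and 789 to 847 in 129S6/SvEvTac and C57BL/6J (F test adjusted p = 0.027; passed in 5 of 12 fits that left out 1 array). Scg5, a chaperone of a prohormone convertase, had a range of 0.71 log2 units and passed in 2 of 12 such fits. Of 31 peptide and metabolic hormone receptors 1 was called, a share close to the 3.27% of all probe sets. It was Sstr1, a somatostatin receptor, which read 85.5 and 88.2 in 129S6/SvEvTac, with 98.3 and 105 in the DBA/2J pools, against -9.61 to 53.5 (F test adjusted p = 0.019; passed in 2 of 12). None of 9 steroid and thyroid hormone receptors and enzymes, 24 hypothalamic transcription factors and 12 monoamine and fast transmitter genes was called by its brightest probe set; 1 further probe set of the last list, of Maoa, was called. Of 18 clock genes 1 was called, beside 3.27% of all probe sets, the kinase Csnk1e, at 430.1 and 487 in C57BL/6J, against 596 to 794 (-0.58 ± 0.07; 1 of 3 probe sets called). Its call ended without the first C57BL/6J array (adjusted p = 0.076), with arrays scaled to 1 median and with the mean of all its probe sets.

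Of 12 immediate early genes, which neurons switch on within minutes of activity, 2 were called, Fos and Egr1, beside 3.27% of all probe sets. Egr1 read 1004 and 1034 in 129S6/SvEvTac, against 435 to 746 in the other strains (0.86 ± 0.13, adjusted p = 0.013), and was lowest in A/J (435 and 452). Fos read 408 and 404 in 129S6/SvEvTac and 198 and 153 in A/J (-0.82 ± 0.16 for A/J, adjusted p = 0.048). The summed signal of the 12 genes was highest on the 129S6/SvEvTac arrays (2444 and 2752). The A/J arrays held 1640.4 and 1356 and overlapped those of C3H/HeJ (1923 and 1639.6). Both F tests passed in only 2 of 12 fits that left out 1 array, those without a C3H/HeJ array (adjusted p 0.0054 to 0.12 for Egr1 and 0.011 to 0.14 for Fos).

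Pituitary hormone genes differed between arrays in 2 ways. Tshb, the beta subunit of thyrotropin, followed strain: it read 884 and 602 in C3H/HeJ and 330.0 and 509 in A/J, against 39.6 to 107 in the other 4 strains (F test adjusted p = 0.0038; C3H/HeJ minus the mean of the other 5 2.99 ± 0.36, A/J 2.00 ± 0.36). The arrays of these 2 strains did not overlap the rest, and the F test passed in all 12 fits that left out 1 array. Gh and Prl, the growth hormone and prolactin genes of the anterior pituitary, did not follow strain, with 5421 and 13.4 for Gh in C57BL/6J and 71.9 and 138 in C3H/HeJ (adjusted p = 0.74 for Gh and 0.5 for Prl). In C3H/HeJ, where Tshb was highest, Gh and Prl stayed low: Prl read 19.4 and 26.5 there and 659 and 614 in A/J. In the pituitary gland itself the Tshb strain means were 3955 in C3H/HeJ and 4759 in A/J, against 3418 to 4759.8 in the others. Cga, the alpha subunit shared by thyrotropin and the gonadotropins, was low in 129S6/SvEvTac, at 5.48 and -16.6, against 59.2 to 567 (-4.66 ± 0.59, adjusted p = 0.0047), with 361 and 59.2 in C57BL/6J and 108 and 426 in FVB/NJ. The 129S6/SvEvTac values lie under the floor, so the size of that difference is a lower bound. The F test of Cga gave 0.018 and passed in 4 of 12 fits that left out 1 array (0.01 to 0.14). The 8 pituitary markers summed to 1602 and 1408 in C3H/HeJ, 4734 and 4277 in A/J, 197 and 673 in 129S6/SvEvTac, 1953 and 693 in FVB/NJ and 2546 and 1885 in DBA/2J, while the C57BL/6J arrays held 7183 and 277. Tshb and Cga are known from the pars tuberalis as well as from the anterior pituitary; the part of carried-along pituitary cells in these values was not tested.

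**Figure D3:**
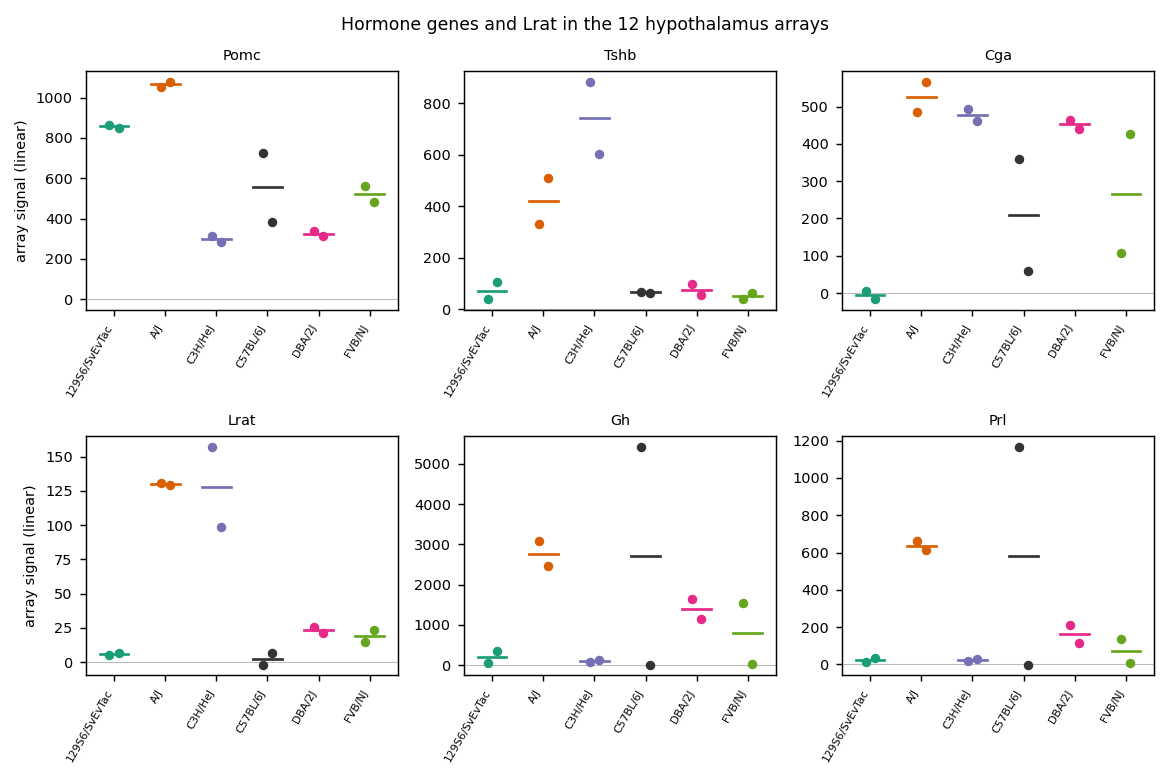
Array signal (y axis, linear) of Pomc, Tshb, Cga, Lrat, Gh and Prl on the 12 hypothalamus arrays by strain (x axis); points are arrays and bars are means of 2 arrays. Tshb and Lrat lie high on both A/J and both C3H/HeJ arrays, while Gh and Prl differ most between the 2 arrays of C57BL/6J.

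The promoters of Tshb and Cga, whose products form 1 hormone, are shown because both were called in the hypothalamus, each with a strain pattern of its own. They run from 250 bases before to 50 bases after the start site, from RefSeq on build GRCm38.p6, 5′ to 3′ on the gene's strand, and both genes matched. Capitals mark letters that match TATAAA (the TATA box), TTANNTAA (the D-box bound by thyrotroph embryonic factor), TGANGTCA (the cyclic AMP response element) or AGATAAG (a motif of GATA factors) on either strand, and in Tshb a D-box match overlaps a TATA box match.
Tshb, chr3:102782665-102782964, minus strand: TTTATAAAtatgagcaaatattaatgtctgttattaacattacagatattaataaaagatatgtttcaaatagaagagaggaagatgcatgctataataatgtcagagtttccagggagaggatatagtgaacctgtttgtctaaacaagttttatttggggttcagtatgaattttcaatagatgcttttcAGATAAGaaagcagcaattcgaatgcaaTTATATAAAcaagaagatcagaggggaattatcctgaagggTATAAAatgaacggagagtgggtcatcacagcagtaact
Cga, chr4:34893529-34893828, plus strand: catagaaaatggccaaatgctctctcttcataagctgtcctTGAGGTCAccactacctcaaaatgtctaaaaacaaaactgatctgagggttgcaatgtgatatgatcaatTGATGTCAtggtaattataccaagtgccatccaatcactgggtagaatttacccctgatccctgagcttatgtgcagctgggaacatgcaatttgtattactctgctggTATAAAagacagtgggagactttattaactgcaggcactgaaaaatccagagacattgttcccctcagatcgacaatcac
Of 32544 promoters of the same length, 13.6% hold the TATA box letters, 5.98% those of the D-box, 8.62% those of the cyclic AMP response element and 3.02% those of the GATA site. Tshb held the D-box, the GATA site and 4 TATA box matches, and Cga held 1 TATA box and 2 cyclic AMP response element matches. The sequence is that of the reference strain C57BL/6J, in which Tshb read 67.7 and 65.5.

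Most probe sets called in the hypothalamus were called in another region too. The counts below hold F calls only, and whether the same strains differed in the same direction was not counted. Of the 1381 called probe sets, 82.0% were called by the same test in the bnst, 74.6% in the pituitary gland, 68.6% in the pag and 65.7% in the hippocampus. These made up 18.4% of the calls of the bnst, 10.4% of those of the pituitary gland, 33.0% of those of the pag and 36.5% of those of the hippocampus. In all 4 other regions 646 (46.8%) were called, and in none of them 99 (7.17%). Among the 362 probe sets with a separated strain, 232 (64.1%) were called in all 4. The hypothalamus had the fewest calls of the 5 regions, 3.27% of probe sets, against 5.98% in the hippocampus, 6.75% in the pag, 14.6% in the bnst and 23.2% in the pituitary gland. The residual SD had its largest median here, 0.26 log2 units, against 0.23 to 0.25 in the others. The regions also differed in mice per array, with the most in the pituitary gland and the fewest in the hippocampus. The bnst had 13 arrays, against 12 in each other region. The part of pool size and array number in these shares was not tested.

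The strain differences of the hypothalamus were then tested against their mean over the other 4 regions in a fit of all 61 arrays. This called 424 of 44065 probe sets (0.962%), 122 of them also called within the hypothalamus, and 5232 had an unadjusted p under 0.05. A call of this hypothalamus-specific test does not tell which region departs, since another region with an unlike strain pattern moves that mean. The smallest p was that of Lrat, lecithin retinol acyltransferase, which stores vitamin A as esters. It read 131 and 129 in A/J and 157 and 98.6 in C3H/HeJ, against -1.75 to 25.9 in the other 4 strains (F test adjusted p = 0.00064; difference from the other regions, adjusted p = 3.4e-10). The 2 strains were the same that held Tshb high. In the other 4 regions no strain mean of Lrat exceeded 20.3. Of its 2 probe sets 1 was called.

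Snhg11, a host transcript of small nucleolar RNAs, was low in DBA/2J, at 666 and 1102, against 2888 to 4044 in the hypothalamus (-1.95 ± 0.17). It was also called in all 4 other regions. The DBA/2J mean was 937 in the bnst, against 2710 to 3478 in the other strains. It was 786 in the hippocampus (others 2291 to 2603.5) and 1110 in the pag (others 2192 to 2747). In the pituitary gland the mean was 113 ± 79.3, with 194 in DBA/2J, 32.8 in A/J and 218 in C57BL/6J. Chga differed by region too (adjusted p = 0.0002), with A/J and C3H/HeJ highest in the hypothalamus. In the pituitary gland their means were 3279 and 3768. The other strains held 4423 (129S6/SvEvTac), 4248 (DBA/2J), 3404 (FVB/NJ) and 2824 (C57BL/6J) there. Ptk2b, a calcium-activated tyrosine kinase abundant in hippocampus, read 200.01 and 186 in FVB/NJ, against 83.6 to 139 in the hypothalamus (0.76 ± 0.12), while its hippocampal mean was 1946 ± 202. The summed signal of 7 hippocampal and cortical markers was 616 and 1299.8 on the FVB/NJ arrays, against 245 to 671 on the other 10, where the second 129S6/SvEvTac array held 671. Of these 7 only Ddn, a dendritic protein, was called (484 and 866 in FVB/NJ, against 135 to 422; adjusted p = 0.031, passed in 3 of 12 fits that left out 1 array), and Slc17a7 had an adjusted p of 0.55. Of all probe sets, 3.27% were called by the F test. The part of neighbouring tissue in the values of FVB/NJ was not tested. Rab6b, Bcat1, Pdap1 and Gria4 had a different strain pattern from that of the other regions, but their F tests within the hypothalamus did not pass (adjusted p of 0.058 for Pdap1 to 0.77 for Gria4).

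**Figure D4:**
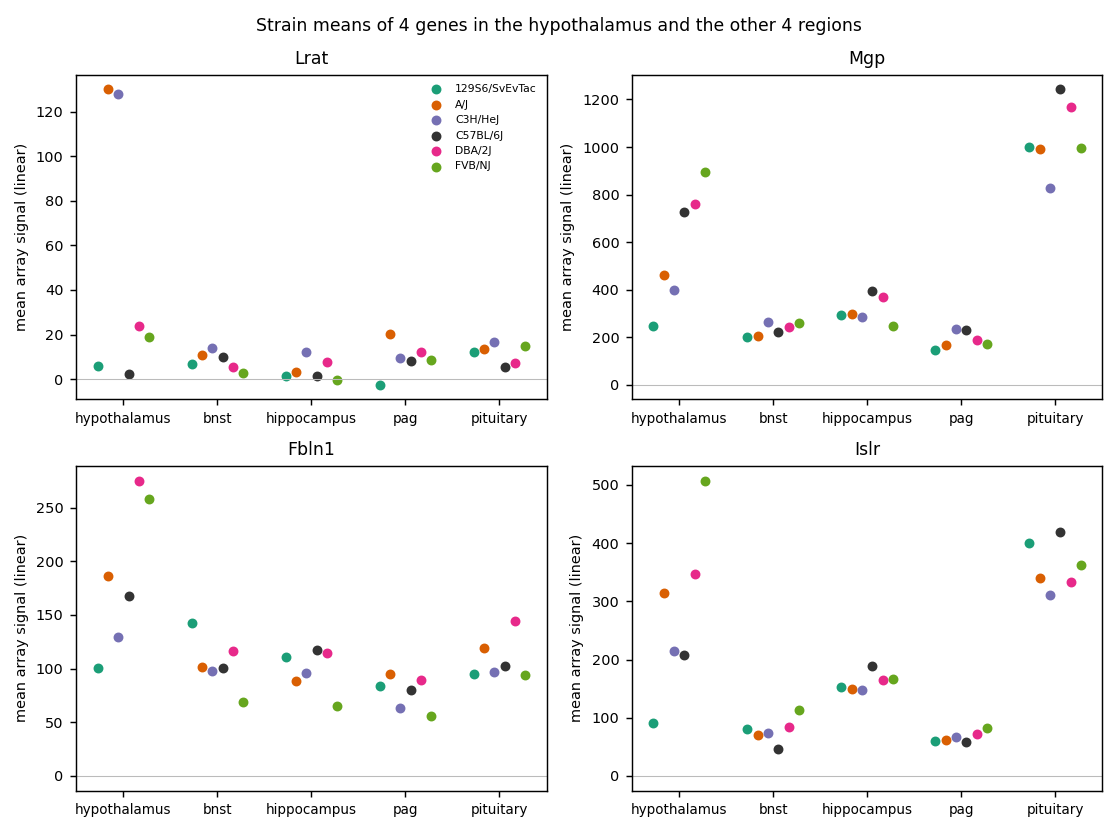
Mean array signal (y axis, linear; mean of 2 arrays, 3 for C3H/HeJ in the bnst) of Lrat, Mgp, Fbln1 and Islr for each strain (colour) in the hypothalamus and the other 4 regions (x axis). Strain means spread in the hypothalamus, where A/J and C3H/HeJ lie apart in Lrat and 129S6/SvEvTac lies lowest in the other 3 genes.

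Among genes with a strain difference in the hypothalamus were some of connective tissue. Mgp, matrix Gla protein, read 248 and 244 in 129S6/SvEvTac, against 376 to 1119.9 in the other strains (-1.32 ± 0.17, adjusted p = 0.0053), with 671 and 1119.9 in FVB/NJ and 792 and 732 in DBA/2J. Fbln1, the matrix protein fibulin 1, read 111 and 89.5 in 129S6/SvEvTac, against 121 to 305 (-0.97 ± 0.14), with 305 and 245 in DBA/2J. For both genes 129S6/SvEvTac lay below all other arrays, and neither was called in another region. A list of 20 genes of meningeal and vascular fibroblasts was drawn up after these values were seen. In it 5 were called (Mgp, Fbln1, Islr, Igfbp6 and Fn1), with a median range of 1.93 log2 units, against 3.27% called and a median range of 0.56 over all probe sets. The other 15 did not pass. Since the list was made after Mgp and Fbln1 were seen, what follows is a description of it and no support for a pattern. The mean was lowest in 129S6/SvEvTac in 17 of the 20 and highest in FVB/NJ in 17, and the median difference from the other 5 was -1.22 in 129S6/SvEvTac and 1.07 in FVB/NJ. How often a strain holds the lowest or highest mean over all probe sets was not counted. In the test against the other 4 regions 11 of the 20 were called, beside 0.962% of all probe sets. The summed signal of the 20 genes was 3764 and 2123 on the 129S6/SvEvTac arrays and 6640 and 9926 on those of FVB/NJ, against 3383 to 6121 on the others. The second 129S6/SvEvTac array, which stands apart, held the lowest, and the first overlapped C3H/HeJ. Without it the F test of Mgp gave an adjusted p of 0.055 and that of Fbln1 still passed (12 of 12), and Islr, Igfbp6 and Fn1 passed in 3 of 12, 5 of 12 and 3 of 12 fits. In bulk tissue, more cells of a type and more RNA per cell cannot be told apart.

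Of 18 genes that glucocorticoids induce, a list also drawn up after values were seen, 8 were called, beside 3.27% of all probe sets, with a median range of 0.89 log2 units. In 129S6/SvEvTac 4 were lower than the mean of the other 5, beside 0.835% of all probe sets. In FVB/NJ 2 were higher, beside 0.39%. The mean was lowest in 129S6/SvEvTac in 10 and highest in FVB/NJ in 11, and the like shares over all probe sets were not counted. Fam107a, an actin-binding protein raised by stress, read 972 and 802 in 129S6/SvEvTac, against 1554 to 2224 (-1.10 ± 0.09, adjusted p = 0.00046). Mt2, a metallothionein, read 1661 and 1675 in 129S6/SvEvTac, against 2148 to 2880.4 (-0.54 ± 0.07), and Sgk1, a kinase of salt and stress responses, read 537 and 555 in 129S6/SvEvTac, 486 and 572 in C3H/HeJ and 1144 and 975 in C57BL/6J. Fkbp5, a chaperone that tempers the glucocorticoid receptor, read 376 to 412 in DBA/2J and FVB/NJ, against 184 to 285 in the other 4 (F test adjusted p = 0.042). Zbtb16, a transcription factor, was lowest in C57BL/6J (173 and 199.6, against 242 to 378) and Klf9 in C3H/HeJ (687 and 598). Fam107a passed in all 12 fits that left out 1 array and Mt2 in 11 of 12 (0.058 without the second 129S6/SvEvTac array), but Sgk1 and Fkbp5 in only 2 of 12 each (up to 0.1 and 0.16). Zbtb16 passed in 10 of 12, Klf9 in 6 of 12, Gjb6 in 4 of 12 and Sult1a1 in 3 of 12. Of the 8, Sult1a1 and Fam107a passed the test against the mean of the other 4 regions.

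**Figure D5:**
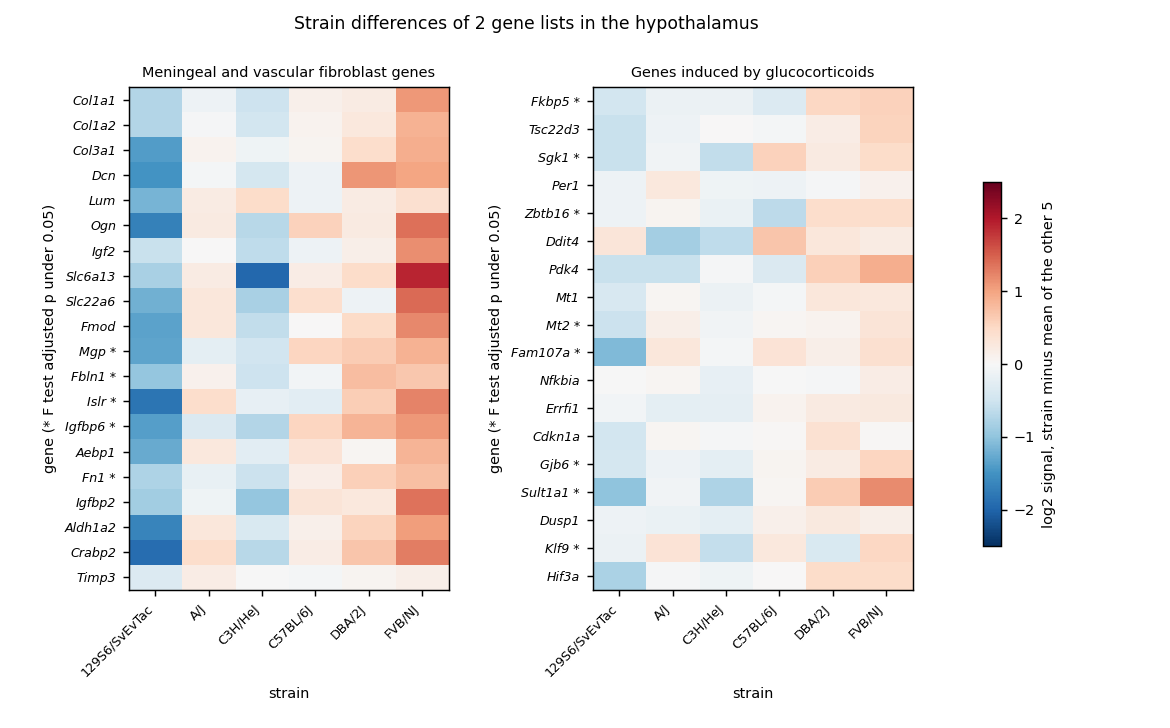
Difference of each strain (columns) from the mean of the other 5 in log2 signal (colour, red higher and blue lower) for 20 genes of meningeal and vascular fibroblasts and 18 genes induced by glucocorticoids (rows; an asterisk marks an F test adjusted p under 0.05). The mean is lowest in 129S6/SvEvTac in 17 of the 20 and 10 of the 18 genes, and highest in FVB/NJ in 17 and 11. The like shares over all probe sets were not counted.

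Markers of other cell types differed in a few genes. C1qa, a complement gene of microglia, read 176 and 198 in 129S6/SvEvTac and 201 and 199.9 in A/J, against 315 to 436 in the other 4 strains (F test adjusted p = 0.0052), while its partner C1qb was highest in C57BL/6J (253 and 279, against 112 to 171; 1 of 3 probe sets called). The 10 microglial markers summed to 1851 to 2352 over the 12 arrays. Cldn5, the tight junction protein of brain endothelium, was lowest in C3H/HeJ (136 and 148, against 189.7 to 343; -0.89 ± 0.09). Ccdc153, a gene of ependymal cilia, read 53.4 and 77.9 in 129S6/SvEvTac, against 116 to 180.4 (-1.13 ± 0.14), and Opalin, a myelin gene, was highest in C57BL/6J (277 and 272, against 103 to 228). Of these calls, C1qa and Cldn5 passed in all 12 fits that left out 1 array, Ccdc153 in 8 of 12, Opalin in 5 of 12 and C1qb in 4 of 12. Of the whole marker lists, 1 of 9 oligodendrocyte, 2 of 10 astrocyte, 2 of 10 microglial and 2 of 9 endothelial markers were called, beside 3.27% of all probe sets. So were 2 of 10 tanycyte and ependymal, 1 of 10 thalamic, 2 of 8 pituitary and 1 of 7 hippocampal and cortical markers. For striatal, choroid plexus and red blood cell markers the counts were 0 of 6, 0 of 8 and 0 of 3. Among the other members called, Rgs16 passed in 5 of 12 such fits, Crym in 2 of 12, Vwf in 1 of 12 and Agt in 0 of 12. The choroid plexus genes summed to 1619 on the first 129S6/SvEvTac array and 1002 on the second C3H/HeJ array, against 473 to 650 on the other 10.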

How the data were processed

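RNA of the dissected hypothalamus was hybridised to Affymetrix Mouse Genome 430 2.0 arrays. The deposited intensity values are the signals that the authors made in the TeraGenomics system by absolute analysis, background-corrected and globally scaled on a linear scale, and 5.05% of the hypothalamus values are below 0. The methods state storage of small structures in RNA Later and the labels snap freezing. Present calls and scanner files were not used here; scan and slide batches are not given in the sources used here.

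Control probe sets (64) were left out. Of 45037 others, 34945 name 1 gene, 932 several and 9160 none in the platform annotation; 34741 were matched to RefSeq by gene ID. Signals were used as deposited, floored at the 20th percentile of all values (12.8) and log2-transformed; 2753 probe sets at the floor on all 12 arrays were left out. Strain means were fitted with limma 3.58.1 (R 4.3.3; lmFit, eBayes with a trend, residual df 6), tested by F, by strain minus the mean of the other 5 and by pairs, and adjusted by Benjamini-Hochberg over all probe sets at 0.05. The hypothalamus-specific test used all 61 arrays (30 group means, residual df 31). The test was checked on simulated data. With 2 arrays a strain the number of arrays limits the precision.

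Named genes were those of the 5 largest differences per strain, taken from separated probe sets with no overlap and a strain mean of at least 100, the 10 with the smallest F p, the 10 with the smallest hypothalamus-specific p, and called members of the lists, read by their brightest probe set. Genes picked outside this rule are named as such and read by the called probe set with the smallest F p, or by the brightest in lists. The members, lists and tests were chosen with earlier results of these data known. Alternatives changed the floor, filter, scaling, samples fitted, test, replicate block, probe set and arrays. A probe set also reads a strain's match to the probes, which was not tested. All columns were mapped to arrays (0 left over).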

Additional observations from a re-analysis of the deposited data

Results flagged for a closer look

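The strain differences of the hypothalamus differed from their mean over the other 4 regions in 424 probe sets, and only 10 genes are listed here. These 10 genes were named by the smallest p of that test (limma, adjusted over 44065 probe sets), which does not tell which region departs. The adjusted p was 3.4e-10 for Lrat, 1.3e-05 for Snhg11, 0.0002 for Chga, 0.0002 for Ptk2b, 0.00024 for Rab6b, 0.00026 for Fbln1, 0.00026 for Bcat1, 0.00038 for Pdap1, 0.0004 for Gria4 and 0.0004 for Tshb. All 10 passed when each of the 12 hypothalamus arrays was left out in turn. Rab6b, a Golgi trafficking protein of neurons, was lowest in FVB/NJ (1249 and 1187, against 1397 to 1715) and is near background in the pituitary gland except in C57BL/6J. Gria4, a glutamate receptor subunit, varied by 0.22 log2 units between strains in the hypothalamus, and its C3H/HeJ mean was 439.6 in the pag, against 639 to 938 in the other strains there. Strains had 2 arrays each in the hypothalamus, too few to look for a single outlying array within a strain.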

How the results depend on the processing

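None of the 30 strain differences of named genes reversed its direction. The F tests and hypothalamus-specific tests were followed by adjusted p alone, and the counts by size, so a reversal could not show in them. With the spread shared over all 61 arrays, 4724 probe sets differed between strains, 3237 in 129S6/SvEvTac, 1321 in A/J, 1006 in C3H/HeJ, 1330 in C57BL/6J, 1106 in DBA/2J and 958 in FVB/NJ against the other 5. With only probe sets of a strain mean of at least 100, 713 were called in A/J and 541 in C3H/HeJ. With arrays scaled to 1 median, 252 were called in A/J and 120 in the hypothalamus-specific test, and a floor of 50 gave 1055 in that test. A plain F test on the signals without log called 575. The F count lay within 1.5 times 1381 under the other floors, filters and scalings. Leaving out 1 array gave 719 to 5356 calls by F, 293 to 8236 in 129S6/SvEvTac, 73 to 2020 in A/J, 70 to 1878 in C3H/HeJ, 131 to 2314 in C57BL/6J, 114 to 2160 in DBA/2J, 177 to 1978 in FVB/NJ and 205 to 3334 in the hypothalamus-specific test. The highest of each was without the first 129S6/SvEvTac array, and the lowest for a strain was without an array of its own; the lone array of a strain is then assumed to vary like the others. With the replicate number as a replicate block, 1050 probe sets were called by F and 576 in the hypothalamus-specific test. Against the other 5 it called 481 in 129S6/SvEvTac, 273 in A/J, 253 in C3H/HeJ, 403 in C57BL/6J, 330 in DBA/2J and 303 in FVB/NJ. Deviations of same-numbered arrays correlated at -0.36 to 0.40 over the 15 pairs of strains (4 above 0.1). Whether same-numbered arrays shared a batch was not tested, since batches are not given in the sources used here. Of 114 results on named genes, 72 passed without each array in turn and 52 under every alternative run. Without the second 129S6/SvEvTac array 18 lost their call, among them Cga, Chga, Cryab, Egr1, Fos, Igfbp6, Mgp, Mt2, Opalin, Sgk1, Sstr1 and Tac2. With arrays scaled to 1 median, 18 lost it, Bcat1 and Gria4 among the hypothalamus-specific ones. Among the 30 strain differences, 26 passed without each array. The causes of these changes were not tested. Signals near 0 limit what can be said of low genes.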
